A study of Mus musculus with 8 samples.

Results

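Enteroendocrine cells are the hormone-secreting cells of the gut epithelium, and their hormone and secretory granule genes are described here in colonic intestinal epithelial cells (IECs) with and without *Efhd2*. The genes were taken by name from the table that the authors deposited for day 0, and all 9 names (*Chga*, *Chgb*, *Pyy*, *Nts*, *Ppy*, *Iapp*, *Cpe*, *Resp18* and *Slc18a1*) were found among its 309 genes. None of the 9 was found by name or gene ID among the 128 genes of the table for day 7. Both tables hold only genes that had passed the authors' thresholds for a difference between the genotypes, so the day 0 values below chose the genes and are given as a description, with no test. The level of these genes on day 7 was not analysed here.

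RNA was sequenced from primary colonic IECs of adult mice in 4 groups, each of 2 libraries. The Efhd2-deficient mice were Efhd2f/f Vil1cre/+, in which the villin promoter drives Cre throughout the intestinal epithelium and the second exon of *Efhd2*, flanked by loxP sites, is removed. The controls were Efhd2f/f mice, which carry the same floxed alleles without Cre, so that an effect of Cre itself cannot be told apart from that of *Efhd2*. Both genotypes were taken without dextran sulfate sodium (DSS), called day 0, and at day 7 of DSS colitis. The day 0 libraries are 51 and 53 for Efhd2-deficient IECs and 50 and 52 for controls. These numbers come from the table's columns and are in no sample label, and no source says whether they pair libraries. Whether a library is 1 mouse or a pool is not stated in the labels. *Efhd2* was at 556 and 713 normalized counts in libraries 51 and 53, and at 2663 and 2686 in the controls.

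Enteroendocrine cells arise from the same crypt stem cells as colonocytes and goblet cells and are scattered singly through the epithelium. They pack peptide hormones or serotonin into dense-core granules and release them when they sense nutrients, bile acids or bacterial metabolites. In the colon the main kinds are the enterochromaffin cells, which make serotonin, and the L cells, which make peptide YY and glucagon-like peptides. Hormone precursors are cut and trimmed inside the granule, whose other contents include acidic proteins of the granin family.

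All 9 genes were lower in Efhd2-deficient IECs of day 0, and in all 9 both Efhd2-deficient libraries lay below both control libraries. The same held for 67.0% of the 309 listed genes, and the libraries did not overlap in either direction for 99.0% of them. As the table was selected on this contrast, nothing is read from that count. The mean in Efhd2-deficient IECs was between 15.3% (*Ppy*) and 49.1% (*Chgb*) of the control mean. On the scale of log2(normalized count + 1), the median difference over the 9 genes was -1.29, beside -1.17 over all listed genes and -1.50 over the 210 listed genes that were lower. In bulk RNA, fewer enteroendocrine cells and less of these RNAs per cell cannot be told apart. The authors also stained chromogranin A protein in the colon of both genotypes without DSS, and reported no effect on differentiation. That staining was not compared with these RNA values here.

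**Figure D1:**
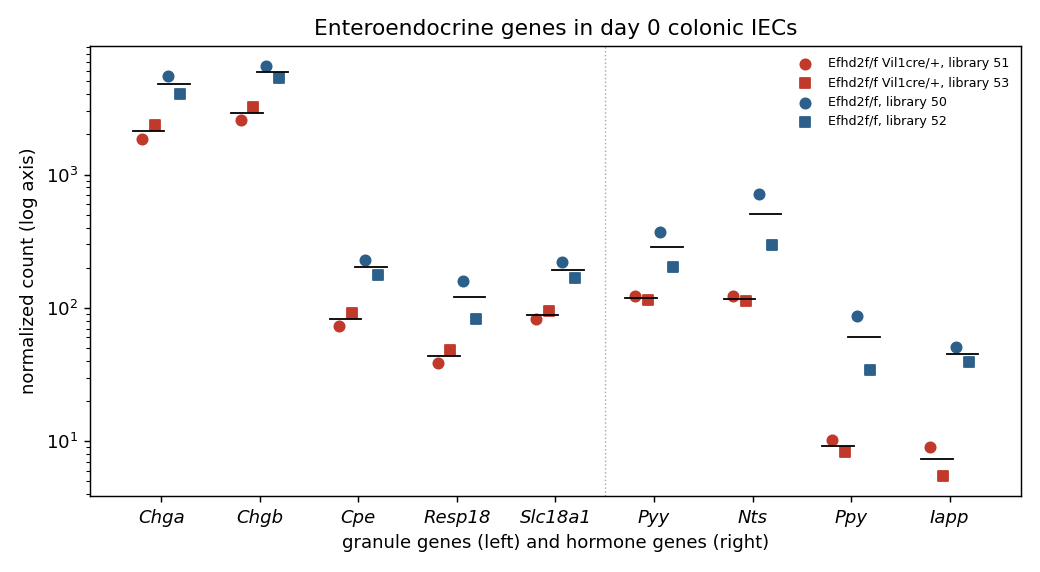
Normalized counts (log axis) of the 9 genes in the 4 day 0 libraries, with granule genes on the left and hormone genes on the right. Red points are Efhd2-deficient libraries, blue points are controls, and short lines are the means of 2 libraries; every red point lies below both blue points of its gene.

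The granins were by far the most abundant of these RNAs. *Chga* encodes chromogranin A, an acidic protein of the granule core that is the standard marker of enteroendocrine cells. It was at 1843 and 2363 normalized counts in Efhd2-deficient libraries 51 and 53, and at 5510 and 4024 in control libraries 50 and 52. The means were 2103 ± 368 and 4767 ± 1050 (SD, n = 2 each), a 2.27-fold lower level and a log2 difference of -1.17 (standard error 0.41). This and later standard errors are limma's, which moves each gene's variance toward a value shared by all listed genes. They therefore vary less between genes than the gaps between libraries do. *Chgb* encodes chromogranin B, a second granin of the same granules. Its counts were 2556 and 3207 in Efhd2-deficient IECs and 6466 and 5274 in controls. The ratio between its means was 2.04, and its log2 difference was -1.03 (standard error 0.40). Of the 9 genes, *Chgb* was thus the nearest to the authors' limit of 1 on the log2 scale. The authors applied that limit to their own fold changes, which were not used here. Genes just outside that limit are not analysed here.

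The ratio of *Chga* to *Chgb* within a library was 0.721 and 0.737 in Efhd2-deficient IECs and 0.852 and 0.763 in controls. The ratio was higher in both controls, and control library 52 was nearer to the Efhd2-deficient libraries than to control library 50. Together they made up 90.5% and 92.1% of the summed normalized counts of the 9 genes in the Efhd2-deficient libraries, and 86.8% and 90.3% in the controls.

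The other granule genes encode a processing enzyme, a transporter and a further granule protein. *Cpe*, for carboxypeptidase E, which trims basic residues from cut prohormones, was at 73.0 and 91.9 normalized counts in Efhd2-deficient IECs and at 230 and 176 in controls. *Slc18a1* encodes VMAT1, the transporter that loads serotonin into the granules of enterochromaffin cells, and was at 83.1 and 94.7 against 220 and 166. *Resp18*, for a regulated endocrine-specific protein of neuroendocrine granules, was at 38.5 and 48.3 against 158 and 82.9. In each of these genes the lower control was still at least 1.72 times the higher Efhd2-deficient library. The log2 differences were -1.29 for *Cpe* (standard error 0.40), -1.10 for *Slc18a1* (0.40) and -1.39 for *Resp18* (0.45). Relative to *Chga*, *Slc18a1* was at 4.51% and 4.01% of the *Chga* count in Efhd2-deficient IECs and 3.99% and 4.13% in controls, and these ranges overlapped. *Cpe* was lower relative to *Chgb*, at 2.86% and 2.87% of the *Chgb* count in Efhd2-deficient IECs against 3.56% and 3.34% in controls.

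The hormone genes differed more widely in how far apart the genotypes were. *Pyy*, for peptide YY, an L cell hormone that slows gut transit and reduces appetite, was at 123 and 114 normalized counts in Efhd2-deficient IECs and at 370 and 203 in controls. *Nts*, for neurotensin, a gut and brain peptide released after fat intake, was at 123 and 112 against 709 and 297. The Efhd2-deficient libraries lay close together for both genes, while control library 50 was well above control library 52. The log2 difference was -1.21 for *Pyy* (standard error 0.44), about that of the granins, and -1.96 for *Nts* (0.49).

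*Ppy* and *Iapp* were counted at low levels. *Ppy*, for pancreatic polypeptide, a relative of peptide YY best known from the pancreatic islet, was at 10.1 and 8.31 normalized counts in Efhd2-deficient IECs and at 86.4 and 34.1 in controls. *Iapp*, for the islet peptide amylin, was at 9.11 and 5.50 against 50.99 and 39.2. These were the genes with the widest separation: the control mean was 6.53 times the Efhd2-deficient mean for *Ppy* and 6.17 times for *Iapp*. Their log2 differences were -2.44 (standard error 0.50) and -2.49 (0.42), and since 1 was added to every count, differences at such levels are understated.

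**Figure D2:**
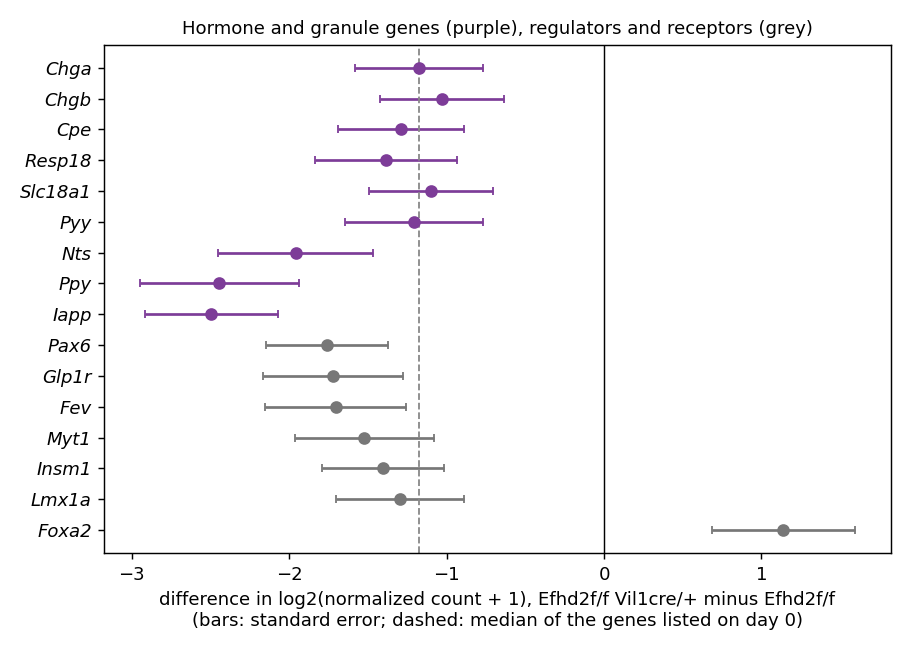
Difference in log2(normalized count + 1) between Efhd2-deficient and control IECs on day 0 (points) with the standard error from limma (bars), for the 9 hormone and granule genes in purple and the 7 listed enteroendocrine regulators and receptors in grey. The hormone and granule genes range from -2.49 (*Iapp*) to -1.03 (*Chgb*) around the dashed median of all listed genes, and *Foxa2* is the gene on the right of 0.

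Control library 50 was higher than control library 52 for each of the 9 genes. The ratio of library 50 to library 52 was 2.53 for *Ppy*, 2.39 for *Nts*, 1.90 for *Resp18* and 1.82 for *Pyy*, and it was between 1.23 (*Chgb*) and 1.37 (*Chga*) for the other 5 genes. On the log2 scale the median of this gap was 0.45 over the 9 genes, 0.23 over all listed genes and 0.44 over the listed genes that were lower. Without library 50 the control value was 2.53 times the Efhd2-deficient mean for *Nts* and 3.70 times for *Ppy*, in place of 4.28 and 6.53 with both controls. For *Iapp* the controls were nearer to each other, and its log2 difference without library 50 was -2.31, close to that with both.

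Between the Efhd2-deficient libraries, the granule genes and the hormone genes went in opposite directions. Each of the 5 granule genes was higher in library 53, with ratios of library 53 to library 51 between 1.14 (*Slc18a1*) and 1.28 (*Chga*). Each of the 4 hormone genes was higher in library 51, with ratios of 0.930 for *Pyy*, 0.914 for *Nts*, 0.820 for *Ppy* and 0.604 for *Iapp*. The gap of *Iapp* spans fewer than 4 normalized counts, and with 1 library on each side none of these ratios has a replicate check. On the log2 scale the median of library 51 minus library 53 was -0.08 over all listed genes. It was -0.19 over the 210 listed genes that were lower, of which 70 were higher in library 51. The direction of the granule genes was thus also that of most lower genes.

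**Figure D3:**
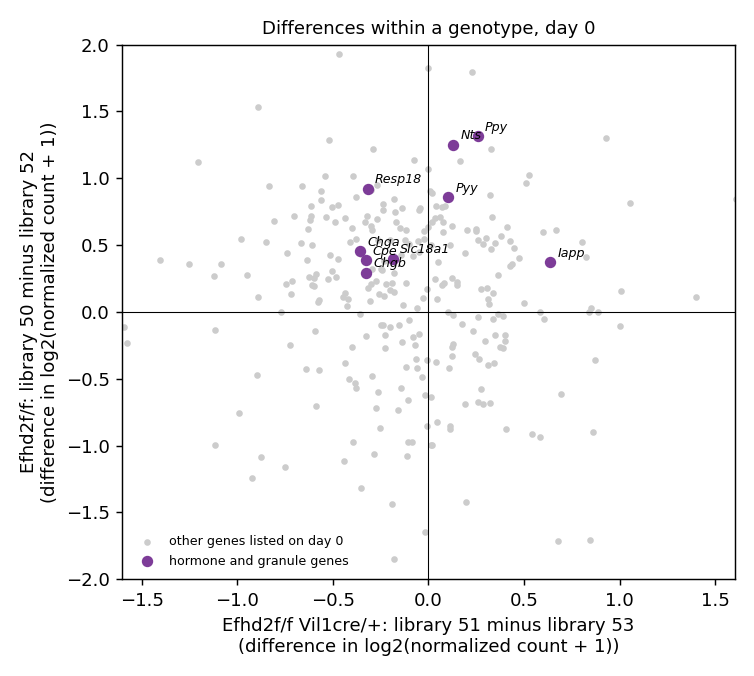
Differences between libraries of the same genotype on day 0, in log2(normalized count + 1): Efhd2-deficient library 51 minus 53 on the horizontal axis and control library 50 minus 52 on the vertical axis. Purple points are the 9 hormone and granule genes, all above 0 on the vertical axis, with the 4 hormone genes right of 0 and the 5 granule genes left of it; grey points are the other listed genes, of which 26 lie outside the axes.

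Set against the granins of the same library, the summed hormone counts were lower in Efhd2-deficient IECs, by a margin that rested on 1 control. For every 100 granin counts there were 6.01 and 4.31 hormone counts in Efhd2-deficient libraries 51 and 53, and 10.2 and 6.17 in control libraries 50 and 52. Control library 52 was thus almost level with Efhd2-deficient library 51. The sum does not stand for each hormone. *Pyy* differed between the genotypes about as much as *Chga* (log2 differences of -1.21 and -1.17). *Nts* (-1.96), *Ppy* (-2.44) and *Iapp* (-2.49) differed more. Within the hormones, *Nts* was at 1.0 and 0.984 times the *Pyy* count in Efhd2-deficient IECs and at 1.92 and 1.46 times in controls. *Ppy* was at 0.0826 and 0.0729 times the *Pyy* count against 0.234 and 0.168. The ratios to *Pyy* did not overlap between the genotypes. A single scaling factor per library would leave such ratios as they were, but low values were not whole multiples of 1 step in every library, so an adjustment that differs between genes cannot be told apart from them. No p is given for them, and for 1 value over these 4 libraries the smallest that exact permutation allows (two-sided) is 0.333.

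**Figure D4:**
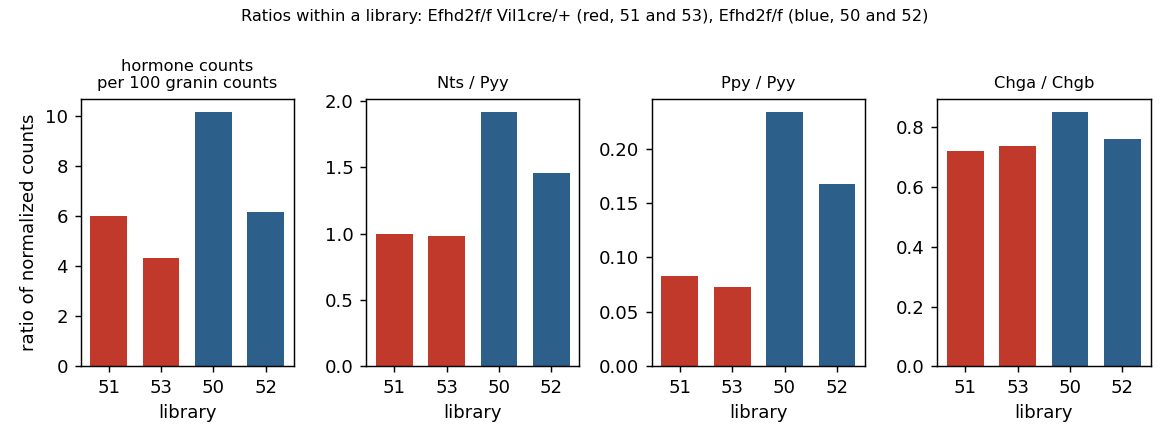
Ratios of normalized counts within each day 0 library, from left to right the summed hormone counts per 100 granin counts, *Nts* to *Pyy*, *Ppy* to *Pyy* and *Chga* to *Chgb*; red bars are Efhd2-deficient libraries and blue bars are controls. The blue bars are higher in each panel, and in the first panel blue library 52 (6.17) is almost level with red library 51 (6.01).

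Divided by the gene length given in the table, the levels could be ordered between genes. In controls the order of mean normalized counts per kilobase was *Chgb* (2142), *Chga* (1730), *Pyy* (454), *Nts* (403), *Ppy* (120), *Resp18* (117), *Cpe* (77.9), *Iapp* (46.3) and *Slc18a1* (35.7). The ranges of the 2 controls overlapped between *Chgb* and *Chga*, *Pyy* and *Nts*, *Ppy* and *Resp18*, *Ppy* and *Cpe*, *Resp18* and *Cpe*, and *Iapp* and *Slc18a1*, so the order within these pairs was not resolved. In Efhd2-deficient IECs the first 4 places were the same, with *Chgb* at 1052 and *Nts* at 94.1 normalized counts per kilobase. *Ppy* (18.4) stood below *Resp18* (42.1) and *Cpe* (31.6) there, from which its range was separate, and *Iapp* (7.50) was last. The ranges of *Ppy* and *Slc18a1* (16.5) overlapped.

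The 9 genes are all protein-coding and lie on 7 chromosomes of GRCm38, with the same coordinates in the table and in GENCODE M21. *Chga* is on chromosome 12 from 102554969 to 102565028 and *Chgb* on chromosome 2 from 132781278 to 132795079. *Ppy* (chromosome 11, 102099930 to 102101319) and *Pyy* (chromosome 11, 102106676 to 102107832) are neighbours on the minus strand, 5356 bases apart with no annotated gene between them. *Nts* is on chromosome 10 from 102481756 to 102490486, *Iapp* on chromosome 6 from 142298423 to 142303961 and *Resp18* on chromosome 1 from 75272199 to 75278415. *Cpe* (64592542 to 64693054) and *Slc18a1* (69037711 to 69089235) are both on chromosome 8. The longest identical run between annotated transcripts of *Ppy* and *Pyy* was 10 bases, and 19 bases between *Chga* and *Slc18a1* was the longest of any pair. *Iapp*, *Resp18* and *Slc18a1* overlap genes of the opposite strand (*Slco1a5*, *Gm28902*, and *Gm15716* with *Atp6v1b2*), none of them listed on day 0. No source states that the counting used strand, so reads of these overlapping genes cannot be told apart from theirs.

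As these genes were listed together, the bases before their starts were compared, with starts and sequences from RefSeq for GRCm38.p6. Such a sequence was matched for 7 genes; *Cpe* and *Slc18a1* were not matched. Those of *Chga*, *Iapp*, *Ppy* and *Pyy* are shown 5′ to 3′ on the strand of the gene because they hold the granin used as the cell marker, the hormone genes of widest separation and the neighbouring pair. Capitals mark TGACG (the core of the cAMP response element), TATANA (the form of a TATA box) and CANNTG (the E-box bound by basic helix-loop-helix factors such as *Neurod1*), searched on both strands, where N is any base.
Chga, chr12:102554821-102554940, plus strand: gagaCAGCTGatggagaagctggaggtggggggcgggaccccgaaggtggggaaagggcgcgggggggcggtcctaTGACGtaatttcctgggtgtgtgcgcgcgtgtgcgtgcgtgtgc
Iapp, chr6:142298303-142298422, plus strand: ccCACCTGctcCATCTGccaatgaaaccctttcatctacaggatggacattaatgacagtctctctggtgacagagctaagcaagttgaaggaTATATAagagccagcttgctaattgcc
Ppy, chr11:102101320-102101439, minus strand: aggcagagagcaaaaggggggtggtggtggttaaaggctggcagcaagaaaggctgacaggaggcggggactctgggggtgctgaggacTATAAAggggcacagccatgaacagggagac
Pyy, chr11:102107833-102107952, minus strand: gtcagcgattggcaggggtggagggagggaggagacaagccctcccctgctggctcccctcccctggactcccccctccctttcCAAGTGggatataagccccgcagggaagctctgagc

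Over the 250 bases before the start, CANNTG was found in 6 of the 7 genes, beside 66.2% of all 32851 promoters in the same table. Its form CAGCTG, which CANNTG includes, was found in 3 (*Chga*, *Nts* and *Resp18*), beside 13.0%. TGACG was found in 3 (*Chga*, *Chgb* and *Nts*), beside 17.8%, and TATANA in 3 (*Nts*, *Ppy* and *Iapp*), beside 22.6%. No motif of these was shared by all 7 genes, and *Ppy* and *Pyy* had none of them in common. The bases shown for *Pyy* do hold tataag, which differs from TATANA only in its last base and was not counted. All 250 bases before the start used for *Chgb* lie in an exon of GENCODE M21, as do 68 of those for *Nts*, so the matches of *Chgb* and those of TATANA at -45 and -43 of *Nts* (counted back from the start) are inside annotated transcripts. A match is a description of the letters and not a bound site.

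Other genes of the enteroendocrine lineage were looked up in lists. The day 0 table held 7 of 40 transcription factors and receptors, with 6 at a lower level and 1 at a higher one. Limma called all 7 in these directions (adjusted p under 0.05 and a log2 difference beyond 1), where it called 62.5% of the listed genes lower and 92.9% in either direction. These genes too are in the table because they passed the authors' thresholds on the same libraries, so the calls are no independent evidence and nothing is read from their number. *Insm1*, a repressor needed for enteroendocrine differentiation, was at 27.4 and 31.6 normalized counts in Efhd2-deficient IECs and 84.3 and 75.0 in controls. *Fev* and *Lmx1a*, factors of the serotonin lineage, had log2 differences of -1.70 and -1.29. *Pax6* (-1.76), a factor of endocrine cells in gut and islet, and *Myt1* (-1.52), a zinc-finger factor of endocrine progenitors, were also called lower. So was *Glp1r* (-1.72), the receptor of glucagon-like peptide. Bulk RNA does not tell which cells held *Glp1r*, and this was not tested. T cell genes were lower in the same libraries too. *Foxa2*, a factor found in endodermal epithelium in general, was called higher, at 227 and 113 against 69.6 and 74.9. Among all listed genes limma called 193 lower and 94 higher. The listed totals were 257002 and 205066 in libraries 51 and 53, and 150452 and 149389 in controls 50 and 52. Bringing each library to the same listed total thus lowered the Efhd2-deficient values against the controls, and lower genes could only move further down. The counts were then 207 and 30, and *Foxa2* (log2 difference 0.53) was no longer called. The 6 regulators were still called lower, from which nothing is read. Adding 0.1 in place of 1 to the counts also left *Foxa2* without a call. No regulator was called without library 51, 53 or 50, and without library 52 there were 4 calls, with *Foxa2*, *Glp1r* and *Lmx1a* not called.

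The other products of the lineage were not listed. None of 28 other gut hormones (among them *Gcg*, *Sct*, *Cck*, *Sst* and *Insl5*; 27 of the names are annotated mouse genes) and none of 38 other granule and exocytosis genes (among them *Scg2*, *Pcsk1* and *Pam*) was in the day 0 table. Of 10 genes of the serotonin pathway *Slc18a1* and *Lmx1a* were listed, and *Tph1*, for the enzyme of the limiting step of serotonin synthesis, was not. Of the 12 enteroendocrine markers fixed for the label, *Chga*, *Chgb* and *Insm1* were listed. A gene that is not listed did not pass the authors' thresholds, and its level was not analysed here.

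Among the other genes of the table whose mean reached 50, those with the profile over the 4 libraries nearest to the mean profile of the 9 genes were *Wif1*, *Cyp2d34*, *Trgv2*, *Ly9* and *Il20rb*. Nearness was the Euclidean distance between centred log2(normalized count + 1) profiles, with distances from 0.14 (*Wif1*) to 0.33 (*Il20rb*) among 200 candidates. *Wif1* encodes a secreted inhibitor of Wnt signaling and was at 28.4 and 26.9 normalized counts against 98.1 and 61.1. *Trgv2* is a T cell receptor gamma gene and *Ly9* a receptor of lymphocytes. Over 4 libraries of 2 groups this mostly matches genes with a similar difference between the genotypes. The 9 genes themselves lay between 0.31 (*Resp18*) and 1.07 (*Iapp*) from their own mean profile.

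Markers of other cell types and of stress also differed between these libraries. Of 16 T and NK cell markers, 6 were listed (*Xcl1*, *Trac*, *Cd7*, *Nkg7*, *Trdc* and *Cd3d*), all lower, and their summed normalized count was 1077 and 1277 in Efhd2-deficient IECs and 3250 and 1991 in controls. Of 11 B and plasma cell markers *Ighd* and *Ighg2b* were listed, with sums of 15.2 and 17.7 against 141 and 72.3. The sums of both lists, like that of the 9 genes, were higher in control library 50 than in 52. Of 10 stromal and muscle markers *Pecam1* was listed, lower by a log2 difference of -1.13. Of 18 heat-shock genes 12 were listed, all higher, with sums of 77412 and 62568 against 17487 and 18319. Of 19 posterior identity genes *Hoxa13* (log2 difference 1.09) and *Hoxb13* (1.51) were higher and *Slc14a1* (-2.32) was lower. Their part in the difference of the hormone and granule genes was not tested.

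No enteric neuron or glia marker (of 15), no pancreatic marker (of 14), no goblet cell marker (of 12), no tuft cell marker (of 12) and no stem or dividing cell marker (of 10) was listed on day 0. Of 12 Paneth cell markers *Lyz1* (6.07 and 2.73 normalized counts against 12.6 and 54.8) and *Defa24* were listed, the latter at 0 in every library but control library 52. *Aqp8*, a water channel of colonocytes, was the 1 colonocyte marker of 11 that was listed, at 2213 and 3293 against 5138 and 6943. For *Aqp8*, *Lyz1* and *Defa24* control library 52 was the higher one, unlike for the hormone and granule genes.

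**Figure D5:**
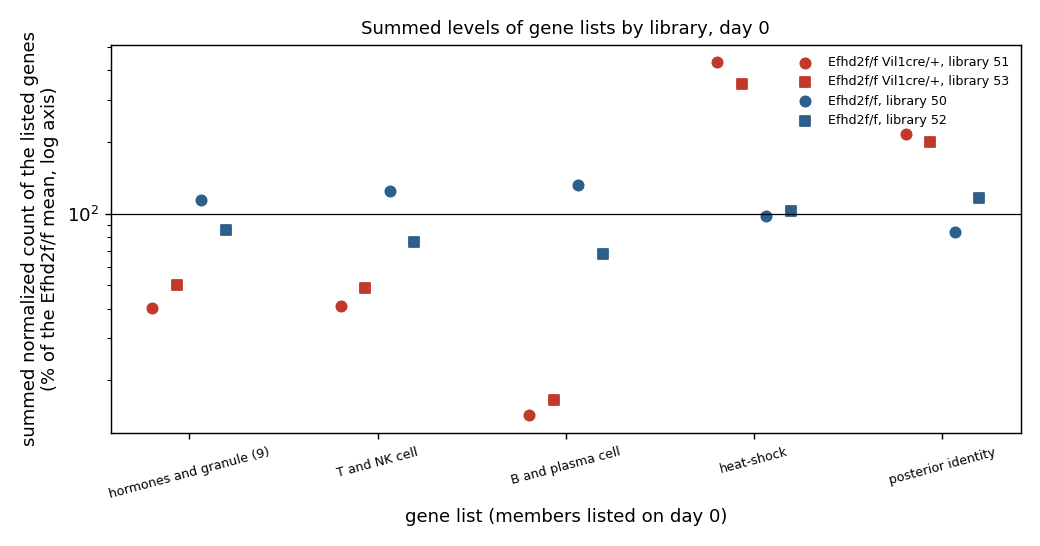
Summed normalized counts of the genes of each list that were listed on day 0, as a percentage of the control mean (log axis), for each library. The 9 hormone and granule genes were at 40.3% and 50.2% in Efhd2-deficient libraries (red) and 115% and 85.5% in controls (blue), T and NK cell genes at 41.1% and 48.7%, and heat-shock genes at 432% and 349% in Efhd2-deficient libraries.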

How the data were processed

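Total RNA of colonic IECs was sequenced in 8 libraries. The submitters' processing notes name CASAVA 1.8, fastp, HISAT2 2.0.5, featureCounts 1.5.0-p3 and DESeq2 1.20.0 and the build GRCm38; the roles of those other than DESeq2 are not given in the sources used here. The authors deposited, per day, the signal of each library as normalized counts per gene, with gene lengths, for genes past their thresholds (DESeq2, absolute log2 fold change above 1, adjusted p under 0.05). Their fold changes and p-values were not used. Low values (below 40) lay within 0.1 of whole multiples of 1 step for 100.0% and 76.0% of values in libraries 51 and 53, and 98.4% and 53.2% in 50 and 52, so whole reads were not recovered, and total depth and counting intervals cannot be given. In day 0, 25 values under 1e-06 were set to 0. Genotypes were compared within the day 0 table by limma 3.58.1 (R 4.3.3) on log2(value + 1) over all 309 genes, with Benjamini-Hochberg adjustment; for the 9 genes only differences and standard errors are given. The procedure was tested on simulated data in which most genes were unchanged and none was selected for a difference. That test therefore does not cover genes selected as those of the day 0 table were. No label says that libraries came from separate mice, so the spread may be technical. Named genes are the 9, *Efhd2*, listed genes of the fixed lists (up to 8 per list by absolute log2 difference) and the 5 nearest profiles. The 9 genes and the lists were chosen with earlier results of these data known. Alternatives were pseudocounts of 0.1 and 10, equal sums, a mean of at least 50, and leaving out each library. Python 3.11.15 was used for the rest.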

Additional observations from a re-analysis of the deposited data

How the results depend on the processing

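The 9 hormone and granule genes were lower in Efhd2-deficient IECs under each alternative that gave a value (70 values, from -3.10 to -0.78 on the log2 scale); as their libraries do not overlap, another pseudocount or a left-out library could not turn the direction. With equal sums over the listed genes, the median of all listed genes shifts by -0.61. As this scaling lowers the Efhd2-deficient values against the controls, it could not turn the direction of the 9 genes either. The median over the 9 genes was then -1.90, and 30 listed genes were called higher. With each library left out in turn that median ranged from -1.64 to -0.95, the latter without control library 50, where *Pyy* was at -0.78. Limma called 120 genes lower when only genes whose mean reached 50 were fitted, a smaller set. With 1 library left out it called 0 to 159 genes lower and 0 to 78 higher; the counts of 0 came without library 51, 53 or 50, where 75 to 107 were lower and 36 to 61 higher at an unadjusted p under 0.05. No paired analysis was possible because the columns carry none of the replicate numbers of the labels. The unknown depth limits *Ppy* and *Iapp* most, at 5.50 to 10.1 normalized counts in Efhd2-deficient IECs.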
